A study of Mus musculus with 10 samples.

Results

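The genes described here encode interferon-inducible GTPases of the IRG (immunity-related GTPase) and GBP (guanylate-binding protein) families. They are the 10 genes Irgm1, Irgm2, Igtp, Tgtp1, Tgtp2, Iigp1, Gbp2, Gbp3, Gbp5 and Gbp7, taken by symbol from the 55815 genes of the count table, and all 10 passed the filter on low counts. Tgtp2 differed between the groups of libraries. It was lower in the 2 libraries of the mutated miR-342-3p control than with each of the other 3 vectors, by 0.36 to 0.49 on the log2 scale. These differences rest on few libraries, and each failed the edgeR test after adjustment when some single libraries were left out. None passed it with the replicate number added to the fit. The differences of the other 9 genes were smaller or less precisely measured, and none of them passed the edgeR test after adjustment over all genes. Each of the 10 had its highest group mean in the scramble control.

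IRG and GBP proteins are GTPases that macrophages and other cells make in response to interferons. They gather on the membranes of vacuoles that hold intracellular pathogens, damage those vacuoles, and help to expose pathogen products to inflammasomes. Interferon gamma drives their genes through transcription factors bound to gamma-activated sites (GAS). Type I interferons act mainly at interferon-stimulated response elements (ISRE).

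The cells were iKCs, a mouse line, and polyadenylated RNA was sequenced from 10 libraries. The study asked which genes differ between cells given vectors (LV in the labels) that raise or sponge miR-342-3p and cells given control vectors, and cells were sorted for viability and for mOrange, the fluorescent marker of transduction. The 4 groups, named by the genotype field, were miR-342-3p overexpression (3 libraries), the mutated miR-342-3p control (2), the miR-342-3p sponge (3) and the scramble control sponge (2). A sponge is an RNA that carries binding sites for a microRNA and takes it up. All groups come from 1 line, no untransduced cells are among the libraries analysed here, and no interferon or other treatment is named in the labels. The titles call the libraries biological replicates. Nothing used here says whether separate cultures were transduced, so a p-value measures the spread between these libraries, which may be partly technical. The counts of sponge replicate 3 and of a scramble library stood in 1 joined field and were separated by likelihood. In the values below the scramble library of that field comes first. Levels are given as CPM (counts scaled to a common library size with TMM factors), or as RPKM, CPM per 1000 bases of exon where genes are compared with each other.

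Totals ran from 25712732 to 59259988 counts a library. Overexpression libraries held 9.64 ± 1.54 CPM (SD over 3) of reads over the Mir342 hairpin, and mutated control libraries 3.04 ± 0.256 CPM (SD over 2). They were 0 in the 5 sponge and scramble libraries, where a count of 0 allows up to 0.0892 CPM (3 counts in the shallowest of them). Such polyadenylated reads count the hairpin's transcript and not the mature microRNA. Macrophage genes were high (Csf1r 2082 CPM and Adgre1 451 CPM on average), while the Kupffer cell markers Clec4f and Timd4 had no read in any library, and Vsig4 averaged 0.0403 CPM. The summed level of the 16 macrophage and Kupffer cell markers was 9076 to 9936 CPM with overexpression, 8950 to 9585 CPM in the mutated control, 9315 to 10147 CPM with the sponge and 9498 to 10278 CPM in the scramble control.

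The sequence of the microRNA and of the promoters shows what the genes do and do not share. The mature miR-342-3p (RefSeq, GRCm38.p6, chr12:108658680-108658702, plus strand) is shown with its seed, bases 2 to 8, in capitals.
miR-342-3p: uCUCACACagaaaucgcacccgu
The 7-base match to that seed is GTGTGAG, and 13.7% of the 20546 genes with an annotated 3′ UTR held it. None of the 10 genes held it in the longest 3′ UTR of GENCODE vM21. The shorter match TGTGAG, present in 39.3% of genes, was found once each in Tgtp1 and Tgtp2, at base 833 of a UTR of 1302 bases, and in none of the other 8. The bases around it were the same in both genes, with the match in capitals.
Tgtp2: aagatgaaTGTGAGcctgtgga
A match is a description of letters and not a measured site.

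RefSeq promoter windows of 300 bases, from 250 before to 50 after the gene's start, were matched for 9 of the 10 genes (GRCm38.p6; Iigp1 was not matched). They were searched on both strands for a GAS motif, TTCNNNGAA, and an ISRE motif, GAAANNGAAA. The 9 genes had 10 windows in all, since Gbp3 had 2, and 1 of the Gbp3 windows held neither motif. The ISRE motif was in a window of each of the 9 genes and in 3.44% of 32851 windows. The GAS motif was in 6 of the 9 and in 8.3% of windows, and 6 of the 9 held both motifs against 0.454% of windows. In Tgtp1, Tgtp2, Igtp and Irgm2 the GAS match stood 2 bases before the ISRE match. That joint arrangement, looked for after the windows had been seen, was in 5 windows (0.0152%), those of these 4 genes and of Gm12185, which overlaps Tgtp1. Tgtp1, Tgtp2 and Gm12185 share stretches of transcript, and Igtp and Irgm2 are alike around the motifs, as printed below. The 5 windows are thus not independent of each other. Among 7 other genes of the families with a window, 3 held the ISRE motif, 1 the GAS motif and 4 neither.

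The stretches from 110 to 11 bases before the start are printed for the 4 genes with the joint arrangement, with both motifs in capitals. Tgtp1 lies at chr11:48992257-48992356 and Tgtp2 at chr11:49064223-49064322, both on the minus strand. Igtp lies at chr11:58199446-58199545 and Irgm2 at chr11:58214867-58214966, both on the plus strand.
Tgtp1: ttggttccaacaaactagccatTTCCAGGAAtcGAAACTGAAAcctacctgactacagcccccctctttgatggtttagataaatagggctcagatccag
Tgtp2: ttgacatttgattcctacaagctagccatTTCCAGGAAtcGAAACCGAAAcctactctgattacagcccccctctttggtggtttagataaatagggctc
Igtp: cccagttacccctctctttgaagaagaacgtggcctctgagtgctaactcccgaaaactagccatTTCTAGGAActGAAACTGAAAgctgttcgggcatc
Irgm2: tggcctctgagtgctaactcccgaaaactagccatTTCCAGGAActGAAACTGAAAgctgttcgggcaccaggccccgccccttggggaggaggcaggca
The remaining windows differed in layout. Irgm1 held 2 overlapping ISRE matches and no GAS match, and Gbp7 held 2 GAS matches and an ISRE match on the other strand. Gbp5 held 2 GAS matches and 1 ISRE match apart from each other, and Gbp2 and Gbp3 held ISRE matches alone. The same 100-base stretch is printed for Irgm1 (chr11:48871431-48871530, minus strand), Gbp2 (chr3:142620553-142620652, plus strand) and Gbp7 (chr3:142530226-142530325, plus strand) to show these layouts.
Irgm1: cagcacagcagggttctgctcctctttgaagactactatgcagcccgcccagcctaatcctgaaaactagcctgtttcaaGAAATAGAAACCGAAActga
Gbp2: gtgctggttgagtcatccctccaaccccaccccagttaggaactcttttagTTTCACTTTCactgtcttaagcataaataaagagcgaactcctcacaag
Gbp7: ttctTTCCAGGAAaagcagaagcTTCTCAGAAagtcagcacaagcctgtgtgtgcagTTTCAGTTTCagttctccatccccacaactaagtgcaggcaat
The last 30 bases of the 300-base window were found in a GENCODE transcript of the same gene for 8 of the 9 genes, all but Irgm2. The deposited gene model of Irgm2 begins beside that of Igtp, whereas the Irgm2 window lies downstream of the Igtp window. Whether that window holds the start used in these cells was not tested.

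**Figure D1:**
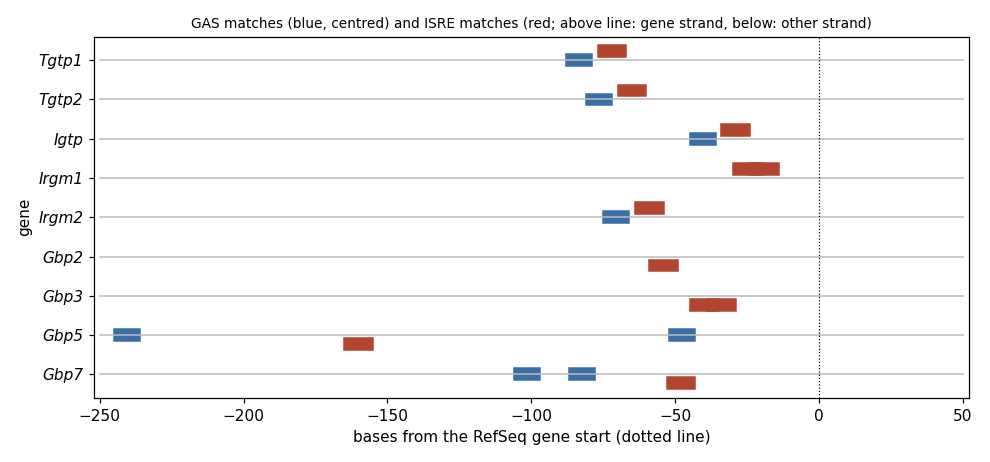
Places of GAS (blue) and ISRE (red) motif matches in the promoter windows of 9 genes, by distance in bases from the RefSeq gene start. For Gbp3 the window with matches is drawn. Red blocks above a line lie on the gene's strand and those below it on the other strand; the 4 genes Tgtp1, Tgtp2, Igtp and Irgm2 share a blue and a red block 2 bases apart.

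Per base of exon, 8 of the 10 genes were well expressed in these cells and 2 were low. Igtp was the highest at 45.7 RPKM on average over the 10 libraries, above 92.8% of the 15767 genes tested. Irgm1 followed at 38.8 RPKM and Irgm2 at 38.1 RPKM. Over libraries these last 2 ranged from 35.1 to 41.1 and from 34.8 to 41.7 RPKM, so their order is within the spread. Gbp3 (31.9 RPKM), Gbp2 (30.4), Tgtp2 (26.2), Iigp1 (24.1) and Gbp7 (17.5) came next. Their library ranges overlapped from each gene to the next in this order. Gbp5 averaged 3.82 RPKM, above 47.3% of genes, and Tgtp1 0.170 RPKM, above 9.98%. Among 27 listed genes of both families, Ifi47 and Gm12250 stood above Igtp at 59.2 and 49.2 RPKM. Irgc1 and Gbp2b were at the bottom with at most 8 reads in a library. These levels were measured with no reads of Ifng, the interferon gamma gene, in any of the 10 libraries, where a count of 0 allows 0.0506 to 0.117 CPM. The receptor genes Ifngr1 and Ifngr2 averaged 165 and 157 CPM, Ifnar1 and Ifnar2 averaged 125 and 75.8 CPM, and Ifnb1 averaged 0.429 CPM.

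**Figure D2:**
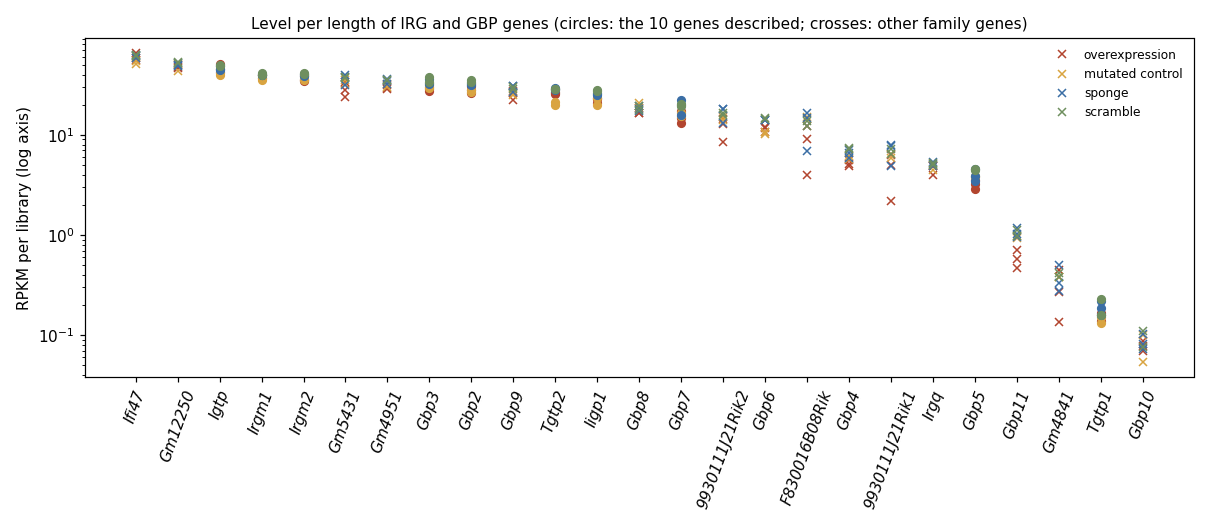
RPKM on a log axis in each of the 10 libraries (1 mark a library, coloured by group) for 25 IRG and GBP genes in order of their mean; Irgc1 and Gbp2b, which failed the filter on low counts, are left out. The 10 genes described are circles: 8 of them lie between 13.1 and 51.0 RPKM, and Gbp5 and Tgtp1 lie lower.

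The first group of members regulates the others. Irgm1, Irgm2 and Igtp (also called Irgm3) sit on host membranes and keep the effector IRG proteins inactive there. Irgm1 (chr11:48752795-48762510, minus strand, positions of genes as the deposited file gives them) stood at 229, 212 and 229 CPM in overexpression replicates 1 to 3. It was at 204 and 214 CPM in the mutated control, at 229, 232 and 235 CPM with the sponge, and at 239 and 229 CPM in the scramble control. Both mutated control libraries were below both scramble libraries, while every pair of neighbours in the order mutated control, overexpression, sponge, scramble overlapped. Irgm1 was also the steadiest of the 10, with a highest group mean 1.12 times the lowest.

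Irgm2 (chr11:58090444-58113608, plus strand) stood at 129, 128 and 143 CPM with overexpression and at 131 and 133 CPM in the mutated control. It was at 149.6, 147 and 144 CPM with the sponge and at 154 and 148 CPM in the scramble control. The 5 libraries of the first pair of groups were all below the 5 of the second, by a narrow margin between overexpression replicate 3 and sponge replicate 3. Igtp (chr11:58090382-58098417, plus strand) stood at 103, 86.6 and 92.5 CPM with overexpression and at 79.3 and 83.5 CPM in the mutated control. It was at 92.8, 90.2 and 97.5 CPM with the sponge and at 100.3 and 98.9 CPM in the scramble control. Its mutated control libraries lay below all 8 others, and its overexpression libraries overlapped with those of both sponge vectors. Igtp and Irgm2 share 162 exon bases on the same strand, 8.01% of Igtp and 4.39% of Irgm2, so reads there cannot be assigned to 1 of them.

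Tgtp2, an effector IRG also called Irgb6, carried the clearest difference. Its counts of 1992 to 4903 reads a library corresponded to 79.3, 74.6 and 77.5 CPM with overexpression and to 57.9 and 62.2 CPM in the mutated control. They corresponded to 83.6, 82.0 and 85.3 CPM with the sponge and to 84.0 and 84.7 CPM in the scramble control. The mutated control libraries were lowest, the overexpression libraries came next without touching either side, and those of the sponge and the scramble control overlapped. Against the mutated control Tgtp2 was higher by 0.36 (SE 0.06) on the log2 scale with overexpression, a 1.28-fold difference with an edgeR adjusted p of 0.0303. It was higher by 0.48 (SE 0.06) with the sponge (adjusted p = 0.0123, edgeR). The mutated control was lower than the scramble control, with a log2 fold change of -0.49 (SE 0.07; edgeR adjusted p = 0.0451). These 3 differences share the mutated control libraries and are not independent of each other. Over the 4 groups together, Tgtp2 was the 1 gene of the 10 to pass (F = 25.1, edgeR adjusted p = 0.0210), where 0.419% of all genes passed. In bulk libraries fewer cells that make a transcript and less of it per cell cannot be told apart.

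The overexpression and sponge groups differed from the scramble control by less for Tgtp2: the log2 fold change was -0.13 (95% interval -0.26 to 0.00; edgeR adjusted p = 0.376) and -0.01 (-0.14 to 0.12; adjusted p = 1). Each of the calls rests on few libraries. The 4-group call was lost without overexpression replicate 2, sponge replicate 1, either mutated control library, either scramble library, or both libraries of the joined field. For overexpression against the mutated control, the edgeR adjusted p for Tgtp2 rose to 0.378 and 0.308 without mutated control replicate 1 or 2, to 0.117 without overexpression replicate 2, to 0.0773 without sponge replicate 1, and to 0.0835 and 0.0839 without either scramble library. For the sponge it rose to 0.169 and 0.204 without mutated control replicate 1 or 2 and to 0.0838 without sponge replicate 1. For the mutated against the scramble control it was 0.903 and 0.467 without mutated control replicate 1 or 2, 0.488 and 0.471 without either scramble library, 0.0947 without overexpression replicate 2, and 0.169 and 0.0902 without sponge replicate 1 or 2. A group left with 1 library was assumed to vary like the others. The log2 fold changes kept their direction in these fits, at 0.31 to 0.42, 0.43 to 0.54 and -0.55 to -0.44. Without both libraries of the joined field, the edgeR adjusted p for Tgtp2 was 0.0545, 0.0698 and 0.629 in the same order, with log2 fold changes of 0.37, 0.47 and -0.50.

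Tgtp1 (chr11:48876154-48884999, minus strand) is a near-identical neighbour of Tgtp2 (chr11:48948021-48955033, minus strand). Of the distinct 100-base stretches in its transcripts, 73.1% also occur in Tgtp2 or Gm12185, and the header of the count table shows no option for reads that match several places. Tgtp1 had 13 to 43 reads a library, 0.591% to 0.869% of the reads counted for the pair, so its own level is uncertain. Of the stretches in Tgtp2, 76.8% also occur in another gene, and its level per length and its rank carry the same limit. Tgtp1 stood at 0.540, 0.443 and 0.506 CPM with overexpression and at 0.420 and 0.484 CPM in the mutated control. It was at 0.600, 0.512 and 0.703 CPM with the sponge and at 0.505 and 0.743 CPM in the scramble control. Neighbouring groups overlapped at this depth, and no comparison passed. With the counts of Tgtp1 and Tgtp2 summed, the edgeR adjusted p was 0.0311 for overexpression and 0.0123 for the sponge against the mutated control, and 0.0470 for the mutated against the scramble control.

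Iigp1 (chr18:60509099-60525706, plus strand) encodes Irga6, another effector. It stood at 134, 122 and 134 CPM with overexpression, at 116 and 135 CPM in the mutated control, at 147, 151 and 145 CPM with the sponge and at 162 and 159 CPM in the scramble control. Libraries of the overexpression and mutated control groups overlapped with each other and lay below all 5 sponge and scramble libraries, and the scramble libraries lay above the sponge libraries. The log2 fold change against the scramble control was -0.30 (SE 0.07) with overexpression and -0.35 (SE 0.08) in the mutated control, with edgeR adjusted p of 0.184 and 0.233. By DESeq2 the adjusted p for Iigp1 was 0.0293 and 0.0239.

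The 4 GBP genes lie in 1 cluster on chromosome 3, with Gbp2b between Gbp3 and Gbp2. Gbp2, whose protein is lipid-anchored and coats pathogen vacuoles, spans chr3:142326363-142343769 on the plus strand. It stood at 77.2, 65.7 and 69.8 CPM with overexpression, at 67.2 and 71.1 CPM in the mutated control, at 79.3, 82.2 and 80.0 CPM with the sponge and at 88.0 and 84.0 CPM in the scramble control. As for Iigp1, the first pair of groups overlapped, and the sponge and then the scramble libraries lay above them without overlap. Gbp3 (chr3:142265787-142278970, plus strand) stood at 98.3, 89.6 and 93.3 CPM with overexpression, at 95.4 and 103 CPM in the mutated control, at 105, 117 and 106 CPM with the sponge and at 122 and 110.1 CPM in the scramble control. Here overexpression had the lowest mean, overlapping with the mutated control, and the sponge overlapped with the scramble control.

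Gbp5, whose protein promotes inflammasome activation in macrophages, spans chr3:142199739-142228105 on the plus strand. It stood at 21.2, 19.1 and 23.6 CPM with overexpression, at 25.2 and 26.0 CPM in the mutated control, at 25.6, 30.1 and 22.8 CPM with the sponge and at 30.3 and 29.4 CPM in the scramble control. The overexpression libraries were below both controls, and the sponge libraries spread over the range of 3 groups. Its log2 fold change was -0.27 (SE 0.11) against the mutated control and -0.49 (SE 0.11) against the scramble control, with edgeR adjusted p of 0.255 and 0.184. By DESeq2 the adjusted p of Gbp5 against the scramble control was 0.0179, and that of Gbp3 was 0.0357. Gbp7 (chr3:142236103-142255910, plus strand), linked to assembly of the phagocyte oxidase on phagosomes, stood at 73.7, 82.8 and 97.1 CPM with overexpression and at 86.2 and 92.9 CPM in the mutated control. It was at 112, 124 and 89.0 CPM with the sponge and at 114 and 109 CPM in the scramble control. Sponge replicate 3 was the low library of its group for Gbp5 and Gbp7, and each neighbouring pair of groups overlapped for Gbp7. Gbp7 shares 637 exon bases (11.3%) with Gm43802 on the same strand.

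**Figure D3:**
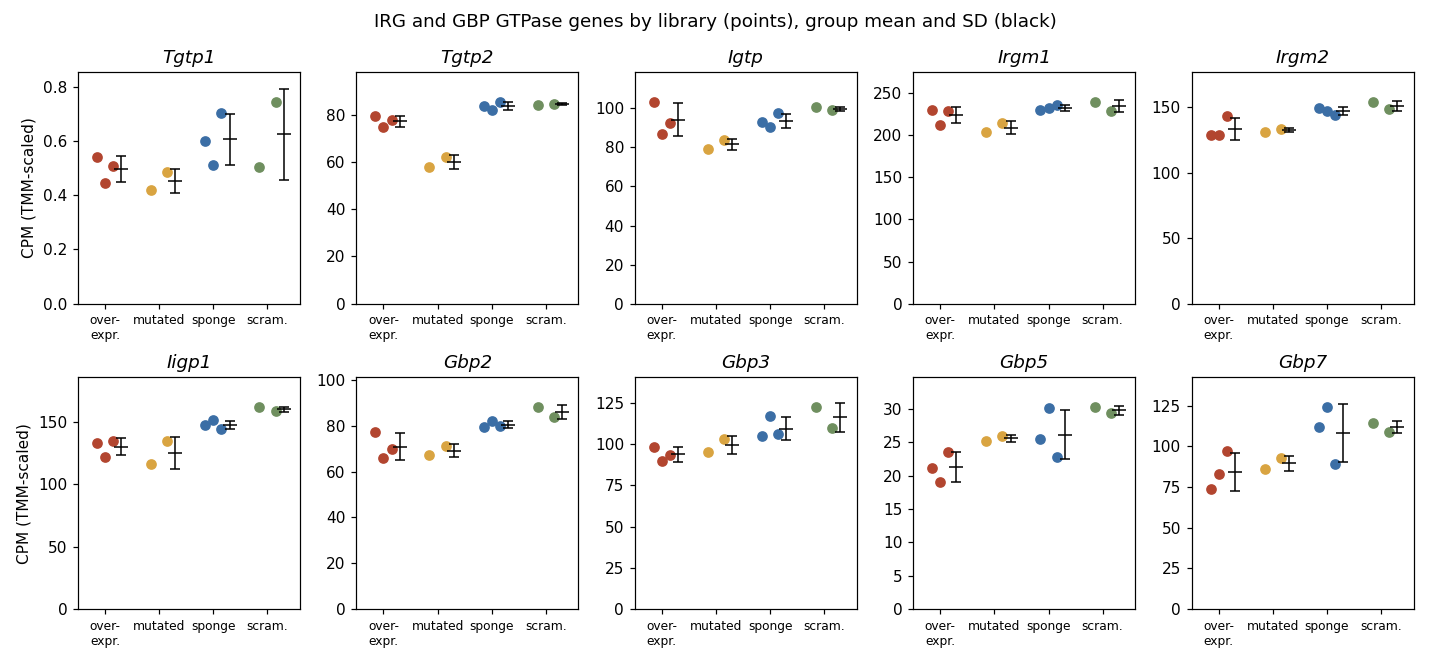
CPM of each gene in the 10 libraries by group (points), with group mean and SD in black; every axis starts at 0. For Tgtp2 the 2 mutated control libraries lie at 57.9 and 62.2 CPM, below the 8 others at 74.6 to 85.3 CPM. For the other genes the groups lie closer together or the libraries within a group spread more widely.

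Read across the 10 genes, overexpression against its mutated control gave no common direction. Tgtp2 was the 1 gene called of 10, where 0.539% of all genes were called. The log2 fold change was above 0 for 7 of 10 genes and for 48.8% of all genes, with a median of 0.04 against -0.01 for all genes. An unadjusted p was under 0.05 for 3 of 10 genes (18.2% of all genes). The 3 highest after Tgtp2 were Igtp at 0.21, Tgtp1 at 0.15 and Irgm1 at 0.10, and the 3 below 0 were Gbp3, Gbp5 and Gbp7. Groups did not overlap for Tgtp2 and Igtp, which were higher (18.9% of all genes), and for Gbp5, which was lower (19.3%). The mutated against the scramble control, a comparison of 2 controls, went 1 way. None of the 10 genes had a log2 fold change above 0, as 50.5% of all genes did; values ran from -0.51 for Tgtp1 (-0.17 and -0.72 without 1 or the other scramble library) to -0.16 for Irgm1, with a median of -0.30 against 0.00 for all genes. In all 10 the groups of 2 and 2 libraries did not overlap and the mutated control was lower, as for 24.2% of all genes. The 10 genes were read in the same libraries and many varied together, so they are not 10 separate observations. Of the 10, 7 had an unadjusted p under 0.05 (6.47% of all genes), and Tgtp2 was the 1 called after adjustment, where 0.0254% of genes were.

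Overexpression against the scramble control gave no call among the 10 by edgeR, where 0.0444% of all genes were called. At an unadjusted p under 0.05 there were 6 of 10 (13.4% of all genes), DESeq2 called 3 (Iigp1, Gbp3 and Gbp5), along with 234 of all 15767 genes, and limma-voom 0. No log2 fold change was above 0 (47.7% of all genes), and values ran from -0.49 for Gbp5 to -0.07 for Irgm1, with a median of -0.29 against -0.01 for all genes. The groups did not overlap for 7 genes, all lower, against 15.9% of all genes. This comparison and the one before share the scramble libraries. The sponge against the scramble control gave no call by edgeR, DESeq2 or limma-voom and no unadjusted p under 0.05 among the 10; over all genes 0% were called by edgeR and 2.33% had such a p. Again none of the 10 log2 fold changes was above 0 (49.3% of all genes); they lay between -0.19 for Gbp5 and -0.01 for Irgm1, with a median of -0.09 against 0.00. Igtp, Iigp1 and Gbp2 did not overlap between the groups and were lower (8.3% of all genes).

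Against the mutated control, the sponge had a log2 fold change above 0 for all 10 genes (49.2% of all genes), with a median of 0.21 against 0.00. The groups did not overlap for 8, all higher with the sponge (17.5% of all genes), an unadjusted p was under 0.05 for 6 (12% of all genes), and Tgtp2 was called, where 0.311% of all genes were. Overexpression against the sponge gave no call among the 10 by edgeR, DESeq2 or limma-voom, where edgeR called 0.767% of all genes. It had 7 unadjusted p under 0.05 (17.7% of all genes), 5 genes lower without overlap (9.09%), 1 log2 fold change above 0 (Igtp; 48% of all genes), and a largest difference of -0.36 (SE 0.12; edgeR adjusted p = 0.165) for Gbp7. The effect of overexpression over its control minus that of the sponge over its control was 0.37 (SE 0.08) for Tgtp2, with an edgeR adjusted p of 0.295 and a DESeq2 adjusted p of 0.0290. None of the 10, and 0% of all genes, were called in this difference by edgeR, where 2 of the 10 and 8.06% of all genes had an unadjusted p under 0.05. DESeq2 called Tgtp2 alone of the 10, among 48 calls over all 15767 genes, limma-voom called 0 of the 10, and 8 of the 10 and 50.1% of all genes had a value above 0.

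**Figure D4:**
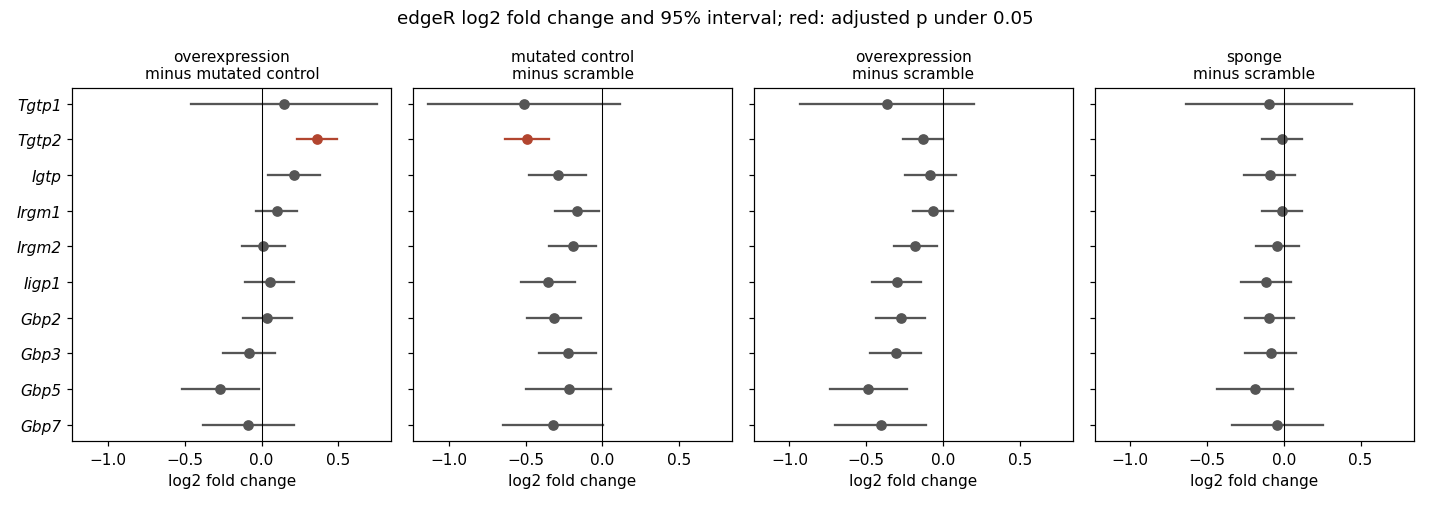
Log2 fold changes with 95% intervals from edgeR for each gene in 4 comparisons; red marks an adjusted p under 0.05. The points for the mutated against the scramble control and for overexpression against the scramble control all lie left of 0, and the red points are Tgtp2 alone, at 0.36 and -0.49.

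One comparison was added after these values had been seen. The 5 libraries with the overexpression or mutated control vector were set against the 5 with either sponge vector, each group weighted equally. Tgtp2 was lower in the former by 0.30 (log2 fold change -0.30, SE 0.04; edgeR adjusted p = 0.0219), and 0.241% of all genes were called. This call was also lost without any 1 of 7 libraries: the adjusted p for Tgtp2 was 0.127 and 0.124 without mutated control replicate 1 or 2, 0.0881 without overexpression replicate 2, 0.0974 and 0.0550 without sponge replicate 1 or 2, and 0.161 and 0.126 without either scramble library. None of the 10 log2 fold changes was above 0 (48.8% of all genes), the median was -0.25 against 0.00, and 9 had an unadjusted p under 0.05 (14.1% of all genes). For Tgtp2, Irgm2, Iigp1, Gbp2 and Gbp3 the 5 libraries of one kind lay wholly below the 5 of the other, as for 2.11% of all genes. The edgeR adjusted p of Iigp1 and Gbp2 was 0.0637 and 0.0738.

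Averaged over the 10 genes after each was centred and scaled over libraries, all 5 sponge and scramble libraries stood above 0 and all 5 others below. The mean scaled level was 1.06 and 0.91 SD in the scramble libraries and 0.46, 0.67 and 0.41 SD in sponge replicates 1 to 3. It was -0.29, -1.13 and -0.23 SD in overexpression replicates 1 to 3 and -1.24 and -0.61 SD in the mutated control. Overexpression replicate 2 thus stood apart from the other 2 of its group and close to mutated control replicate 1. Over the 10 libraries, and without Tgtp1, Pearson's r between pairs of IRG genes was 0.456 to 0.901 (10 pairs) and between pairs of GBP genes 0.625 to 0.911 (6 pairs). Pairs of 1 IRG and 1 GBP gene ran from 0.0995 (Igtp with Gbp5) to 0.943 (Iigp1 with Gbp2). These coefficients are descriptions, since all genes of a library share its culture, depth and scaling. The coefficient of variation over the 10 libraries, Tgtp1 aside, ran from 5.00% for Irgm1 to 16.4% for Gbp7, with a median of 10.03%. It was above 6.98%, the median of the 7106 genes with at least the mean CPM of Gbp5, for 7 of these 9 genes.

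**Figure D5:**
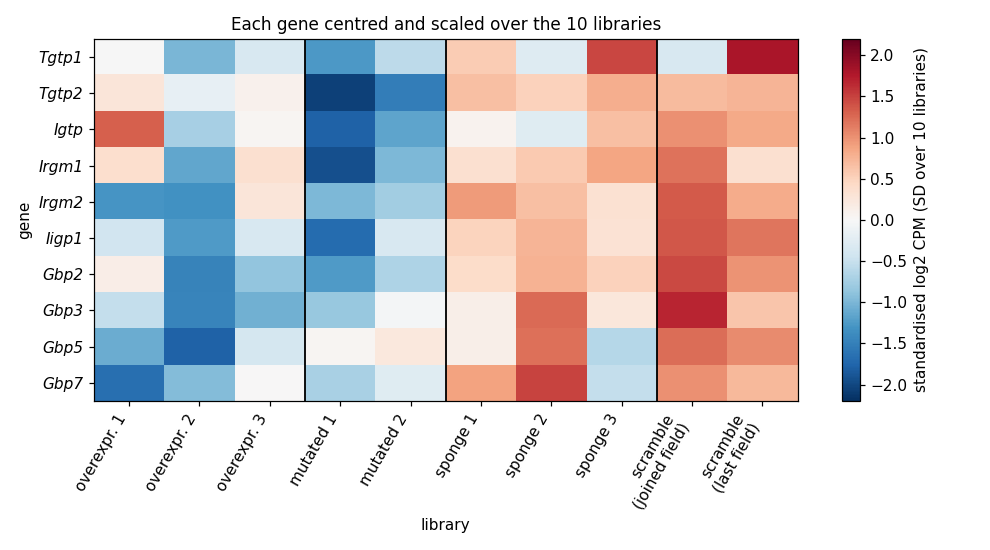
Level of each gene in each library as log2 CPM, centred and scaled over the 10 libraries (colour, in SD); lines part the 4 groups. Sponge and scramble columns are mostly red and the others mostly blue, with overexpression replicate 1 red for Igtp (1.32 SD) and sponge replicate 3 blue for Gbp5 and Gbp7.

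Among 10285 other genes averaging 2 or more in log2 CPM, the 10 whose level was most alike to this mean pattern had r of 0.921 to 0.972 over the 10 libraries. They were Gbp6 (0.972), Stxbp3 (0.971), Sp100 (0.950), Aoah (0.948), Gm15433 (0.947), Pirb (0.947), Ifi44 (0.944), Ctsh (0.924), H2-T22 (0.923) and Mndal (0.921). Gbp6, a GBP on another chromosome, stood at 72.0, 63.4 and 69.9 CPM with overexpression, at 61.0 and 63.8 CPM in the mutated control, at 83.4, 84.6 and 84.5 CPM with the sponge and at 85.9 and 87.9 CPM in the scramble control. All 4 groups but the first pair lay apart. By edgeR Gbp6 was called lower with overexpression than with the sponge. It was also called lower in the pooled overexpression and mutated control libraries than in the sponge and scramble libraries. With 1 library left out, these log2 fold changes were -0.34 to -0.24 and -0.41 to -0.36. Most of these fits lost the first call, and some lost the second. Like Tgtp2 it passed the test over the 4 groups (edgeR adjusted p = 0.0227), and it was higher with the sponge than in the mutated control by 0.43 (SE 0.07; adjusted p = 0.0335, edgeR). This last call on Gbp6 was lost without either mutated control library, sponge replicate 1 or 2, or either scramble library, with an adjusted p of up to 0.493.

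Other family members and genes of the interferon pathway were read from lists. Of 9 other IRG genes tested, none was called in overexpression or mutated control against either control, with median log2 fold changes of -0.23 (overexpression against the mutated control), -0.14 (mutated against scramble control) and -0.40 (overexpression against scramble control). Among these 9 the smallest p of the 4-group test was that of Gm4951, at 78.7 ± 3.64, 82.5 ± 4.01, 90.7 ± 4.53 and 92.9 ± 0.0706 CPM (SD, n = 3, 2, 3 and 2) in overexpression, mutated control, sponge and scramble control, with an edgeR adjusted p of 0.187. The medians of 6 other GBP genes were -0.12, -0.24 and -0.31 in the same order, and Gbp6 was the 1 that passed a test. For 6 other large interferon-inducible GTPases none was called, and Mx2, an antiviral GTPase, had the smallest p. Overexpression gave Mx2 a mean of 46.9 ± 2.36 CPM (SD, n = 3), and the mutated control gave 36.3 ± 2.93 CPM (SD, n = 2), with an edgeR adjusted p of 0.0524 for their difference.

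Upstream of the GTPases, 1 of 6 tested interferon and receptor genes rose with overexpression over the mutated control. It was Ifnar1, a chain of the type I interferon receptor, at 126, 134 and 133 CPM against 98.4 and 102 CPM (log2 fold change 0.39, SE 0.06; edgeR adjusted p = 0.0221). The sponge stood at 133, 128 and 131 CPM and the scramble control at 128 and 131 CPM, so the mutated control was the low group for Ifnar1 as for Tgtp2. The call on Ifnar1 was lost without overexpression replicate 2, either mutated control library or either scramble library, with an edgeR adjusted p of up to 0.327. None of 22 genes of the JAK-STAT-IRF relay and its inhibitors was called in these 3 comparisons. Irf7, with the smallest p of this list, stood at 560 ± 54.0, 485 ± 14.5, 620 ± 31.9 and 649 ± 23.4 CPM (SD, n = 3, 2, 3 and 2) with overexpression, mutated control, sponge and scramble control (edgeR adjusted p = 0.123 over the 4 groups). Irf1, an interferon-induced transcription factor that itself drives GBP genes, stood at 117 ± 9.01, 111 ± 5.57, 114 ± 7.58 and 117 ± 1.73 CPM in the same order, with overlapping groups except between the controls.

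Downstream, 1 of 38 type I interferon target genes was called with overexpression over the mutated control: Ifit1, an RNA-binding antiviral protein, stood at 101, 89.5 and 98.1 CPM against 72.9 and 77.2 CPM. Over all 10 libraries Ifit1 averaged 91.6 CPM, so overexpression lay near that mean and the mutated control below it. With overexpression Ifit1 was higher than in the mutated control by 0.36 on the log2 scale (SE 0.07, edgeR adjusted p = 0.0489). This call was lost without any 1 of 7 libraries (overexpression replicate 1 or 2, sponge replicate 1, and each mutated control and scramble library). The list's median was 0.12 there and -0.21 in the mutated against the scramble control, where 20 of the 38 had an unadjusted p under 0.05 (6.47% of all genes) and none was called. Of 20 other interferon gamma target genes none was called, with medians of 0.13 and -0.16. Slc11a1, a phagosomal metal transporter, had the smallest p over the 4 groups in that list (edgeR adjusted p = 0.149). None was called among 16 genes for loading of GTPases onto vacuoles and autophagy conjugation. Nor was any of 10 genes listed for prenylation of GBP proteins and GDP dissociation inhibitors (with Pim1 and Ywhah), or of 10 inflammasome partners. The smallest p over the 4 groups in these lists belonged to Gabarapl1, Fntb and Nlrp3, with edgeR adjusted p of 0.106, 0.425 and 0.132.

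Markers of other cell types were measured beside these genes. The summed level of 12 lymphocyte markers was 1.32 to 2.13 CPM with overexpression, 1.77 to 1.85 in the mutated control, 1.99 to 2.48 with the sponge and 2.59 to 2.73 in the scramble control. Like the GTPase genes, this sum was highest in the scramble control. The highest library was also a scramble library for the macrophage and Kupffer cell sum and for the stellate and fibroblast sum. For the dendritic cell and hepatocyte sums it was a mutated control library. For the endothelial sum it was a sponge library, and for the neutrophil sum an overexpression library. Of the 12 lymphocyte markers, Cd3e, Cd3g, Nkg7, Ncr1 and Ifng had no read in any library. Cd4, which macrophages can also express, made up 1.56 CPM on average. The 9 endothelial markers summed to 118 to 151 CPM with overexpression, 157 to 179 in the mutated control, 166 to 187 with the sponge and 160.2 to 186 in the scramble control, most of it Vwf (138 CPM on average). Of this list Clec4g had no read, and Kdr was lower with overexpression than with its mutated vector, by a log2 fold change of -0.47 (SE 0.08) with an edgeR adjusted p of 0.0352, a call lost without any 1 of the same 7 libraries as for Ifit1. Summed levels in any library were at most 0.672 CPM for 9 hepatocyte markers, 0.371 CPM for 6 neutrophil markers, 1.88 CPM for 8 stellate and fibroblast markers and 11.5 CPM for 6 dendritic cell markers. The part of these transcripts in the differences of the GTPase genes was not tested.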

How the data were processed

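The authors deposited 1 table of whole-number counts of read pairs per gene, without normalization, for the 10 libraries. Per the file headers, counting used featureCounts 2.0.1 by gene name with the vM30 annotation of GENCODE, paired reads, a minimum overlap of 10 and strand setting 0. Strand was unused, so overlapping and antisense genes cannot be separated. The submitters' processing notes also name STAR 2.7.6a, Subread, Trimmomatic, FastQC 0.11.6 and the build GRCm38 for the deposited counts. The build and annotation name different assemblies, so gene positions are printed as deposited. The header names 12 libraries, of which 10 are analysed here.

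Each line has 15 fields under 16 names, since 2 counts are written as 1 number. That number was cut where a negative binomial model (dispersion 0.1, expectation from the 8 intact libraries) was likeliest, and 51 of 55866 genes with a likelihood ratio under 100 were dropped. When intact libraries were joined in the same way (56 combinations) and cut again, at least 99.9874% of genes and all 10 GTPase genes came back unchanged. The group of the scramble libraries was taken from the order of the names in the header, and their replicate numbers are not known.

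edgeR 4.0.16 in R 4.3.3 (robust quasi-likelihood, TMM, expression filter) fitted all 10 libraries at once with 6 residual degrees of freedom, and p-values were adjusted by Benjamini-Hochberg over 15767 genes, with a threshold of 0.05. CPM used TMM factors, and RPKM used the exon length deposited by the authors. In counts simulated for overexpression against the mutated control (15528 genes), the fit found 85.2% of changes of 1.5-fold and 96.2% of those of 2-fold, with 4.57% false among the calls, and for the mutated against the scramble control (15530 genes) 77.0% and 93.6%, with 7.65% false, in data without effects shared by genes of a library. Genes at lower counts or smaller changes are harder to detect. DESeq2 1.42.0, limma-voom 3.58.1 and the other alternatives are given at the end. All 10 GTPase genes were named. From each pathway list, called genes were named, up to 3 by the smallest p of the 4-group test, or the 1 smallest where none was called, and further genes named were chosen after their values were seen. The level of 1 gene of the relay list is not reported here. The genes and lists were chosen with earlier results of these data known. Promoter and microRNA sequences are from RefSeq, and UTRs from GENCODE vM21.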

Additional observations from a re-analysis of the deposited data

How the results depend on the processing

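In this paragraph "hairpin against sponge vectors" stands for the pooled comparison of 5 against 5 libraries. The count of the 10 genes called was 1 for overexpression against the mutated control, sponge against the mutated control, mutated against scramble control, hairpin against sponge vectors and the 4-group test, and 0 for the rest. Under limma-voom and without robust dispersions all counts and all calls were as before. RLE factors gave 0 for the mutated against the scramble control. Without the low-count filter the count was 2 for that comparison, 4 for overexpression against scramble, 2 for overexpression against sponge, 6 for hairpin against sponge vectors and 6 for the 4-group test, where 149, 747, 1155, 660 and 1707 of all 29774 genes were called. With DESeq2 it was 2, 3, 0, 6 and 5 in the same order, and 1 for the difference of effects, with 90, 234, 658, 400, 849 and 48 of all 15767 genes called. With the usual filter edgeR called 4, 7, 121, 38, 66 and 0 of these 15767. Fitting only the groups compared gave 0 for overexpression against the mutated control (34 of 15311 genes) and 7 for the mutated against the scramble control (574 of 15157 genes). Leaving out both libraries of the joined field, an alternative added after the data were seen, gave 0 in all 5 comparisons that had 1. Leaving out 1 library gave 0 to 2 for the 4-group test and for overexpression against sponge, 0 to 3 for hairpin against sponge vectors, and 0 to 1 for overexpression against mutated, sponge against mutated, and mutated against scramble control. The cause of these changes was not tested.

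Correlations of the libraries' deviations from group means cannot settle whether replicate numbers pair them. In a group of 2 libraries the deviations mirror each other. Outside the scramble control, pairs from different groups with the same number had correlations of -0.613 to 0.0880 (titles) and -0.613 to 0.0954 (descriptions). Pairs with different numbers had -0.423 to 0.627 by titles and by descriptions. Which number belongs to which scramble library is not known, so each replicate block was fitted with both assignments, the second added after the data were seen. The count was 0 in all 9 comparisons under either number and either assignment. For overexpression against the mutated control the edgeR adjusted p of Tgtp2 was 0.238 and 0.286 (titles) and 0.257 and 0.255 (descriptions), and the log2 fold change of Irgm2 turned from 0.01 to -0.00855 and -0.00841 (titles).

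Some values near 0 turned direction. Without the joined field, the log2 fold change of sponge against scramble control was 0.00798 for Irgm1, 0.0118 for Gbp3 and 0.113 for Gbp7, and the difference of effects for Gbp3 was -0.0838. With 1 library left out, overexpression against the mutated control ran from -0.0308 to 0.0461 for Irgm2, -0.0483 to 0.172 for Iigp1, -0.0301 to 0.0993 for Gbp2 and -0.184 to 0.00367 for Gbp7. Sponge against scramble control ran from -0.302 to 0.251 for Tgtp1, -0.0269 to 0.00149 for Tgtp2, -0.0423 to 0.0191 for Irgm1 and -0.151 to 0.0804 for Gbp7. Overexpression against sponge ran from -0.0626 to 0.0701 for Igtp, and sponge against the mutated control from -0.0820 to 0.123 for Gbp5. The difference of effects ran from -0.104 to 0.450 for Tgtp1, -0.0725 to 0.0788 for Gbp3, -0.173 to 0.0323 for Gbp5 and -0.167 to 0.0645 for Gbp7. Depth limits Tgtp1, with 13 to 43 reads a library.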
